A study of Mus musculus with 14 samples.

Results

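The genes described here encode the proteins of the large (60S) subunit of the cytosolic ribosome. They were taken as the protein-coding genes of the deposited count table whose symbol in the mouse GENCODE annotation of GRCm38 is Rpl or Rplp followed by a number and, in some cases, a paralog letter. This rule gave 50 of the 39017 genes in the table. Of these, 49 were among the 21298 genes with enough counts to be tested. The gene left out, Rpl10l, had 1 count in 1 input library and 0 in the other 13.

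The samples came from mice carrying PV-Cre and a Cre-dependent EGFP-L10a transgene, so that parvalbumin-positive (PV) neurons, and other cells in which PV-Cre is active, carry a green fluorescent tag on the ribosomal protein L10a. Translating ribosome affinity purification (TRAP) used the tag to recover polysome-attached mRNA from hippocampal homogenates, and 2 hippocampi of 1 mouse made 1 TRAP sample. All mice were males of C57BL/6 background, aged 8 to 12 weeks when the behavioral experiments began. TRAP libraries were made from 4 non-defeated mice, which had no contact with aggressors during the days of defeat. After 10 days of chronic social defeat stress (CSDS), they were also made from 4 resilient mice (social interaction ratio above 1) and 3 susceptible mice (ratio below 1). In addition, 3 input libraries held total RNA of non-defeated homogenates before TRAP. All 4 groups carried the same transgenes, and libraries are named below by group and by the number in their sample name.

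The large subunit joins amino acids in its peptidyl transferase center, passes the growing chain through an exit tunnel and binds elongation factors at a flexible stalk. Most of its proteins are present as a single copy per ribosome, and many of their mRNAs start with a C followed by a run of pyrimidines, the 5′ terminal oligopyrimidine (TOP) motif, through which mTOR signaling and LARP1 adjust how much of them is translated. Neurons need ribosomes in the cell body, dendrites and axons, and mRNAs of ribosomal proteins are also known from neuronal processes. In TRAP one of the large-subunit proteins, L10a, is itself the handle by which ribosomes are recovered.

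RefSeq start-site sequences of GRCm38.p6 were found for 38 of the 50 genes. A pyrimidine tract of the TOP kind was searched on the coding strand as a C followed by at least 5 further pyrimidines and starting within 10 bases of the annotated start. It was found in 17 of these 38 windows (44.7%), against 19.2% of 27025 genes. In the 300 bases from 250 before to 50 after the start, on either strand, the ETS core CCGGAA was found in 18 of 38 (47.4%, against 15.2% of all genes), the GC box GGGCGG in 24 (63.2%, against 35.9%) and the YY1 core AAGATGG in 3 (7.89%, against 6.48%). TATAAA between 40 and 15 bases before the start, on the coding strand, was found in 0 of 38, against 2.22% of all genes. The windows below run from 30 bases before to 20 after the start. The first 5 belong to the genes with the smallest p-values between TRAP and input, Rpl36a is the paralog of Rpl36al, and Rpl4 was lower in TRAP. Capitals mark the tract from its C nearest to the start, and windows without capitals held none that starts within 10 bases. The window of Rpl4 does hold a run of pyrimidines after a C, which begins further before the start and was not counted.
Rpl10a, chr17:28328441-28328490, plus strand: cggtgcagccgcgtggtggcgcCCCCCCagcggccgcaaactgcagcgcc
Rpl36al, chr12:69184048-69184097, minus strand: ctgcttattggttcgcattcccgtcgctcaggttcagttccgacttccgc
Rpl38, chr11:114668550-114668599, plus strand: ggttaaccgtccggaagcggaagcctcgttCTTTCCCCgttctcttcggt
Rpl27, chr11:101442215-101442264, plus strand: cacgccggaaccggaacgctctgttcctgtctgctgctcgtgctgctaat
Rpl28, chr7:4792935-4792984, plus strand: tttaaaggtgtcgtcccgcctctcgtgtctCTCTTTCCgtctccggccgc
Rpl36a, chrX:134585624-134585673, plus strand: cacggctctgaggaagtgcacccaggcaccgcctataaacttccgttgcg
Rpl4, chr9:64173357-64173406, plus strand: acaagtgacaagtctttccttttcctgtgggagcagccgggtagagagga
The tract lay at the annotated start in Rpl38 and Rpl28 and 8 bases before it in Rpl10a. These letters describe the annotated windows and not where transcription starts in PV neurons.

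Library totals ranged from 64110214 to 94726962 counts. Levels below are normalized CPM, the counts scaled to a common library size, with TMM factors. The 8 PV interneuron markers were all higher in non-defeated TRAP than in input, Pvalb itself by 5.85 ± 0.17 on the log2 scale, and all 7 excitatory, 8 oligodendrocyte and 7 microglial markers were lower. Of 7 astrocyte markers 5 were lower, of 6 endothelial markers 2 were higher (median log2 fold change 0.74), and of 4 choroid plexus and ependymal markers 1 was higher and 1 lower. Of 5 erythroid markers 4 were lower (median log2 fold change −2.34). In the TRAP libraries the summed level of these PV markers was 3868 to 4226 CPM in non-defeated, 3642 to 4342 in resilient and 3203 to 4473 in susceptible mice.

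Together the 50 genes took 0.525% to 0.577% of all counts in the input libraries. Their share was 0.614% to 0.809% in non-defeated, 0.608% to 0.669% in resilient and 0.737% to 0.858% in susceptible TRAP libraries. All TRAP libraries stood above the 3 input libraries, and the 3 susceptible libraries stood above the 4 resilient ones, while the non-defeated libraries overlapped both. In 47 of the genes each library held between 1732 and 37559 counts. The other members were Rpl10l, with the single count, and the low paralogs Rpl3l, with 19 to 138 counts, and Rpl39l, with 1 to 31.

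**Figure D1:**
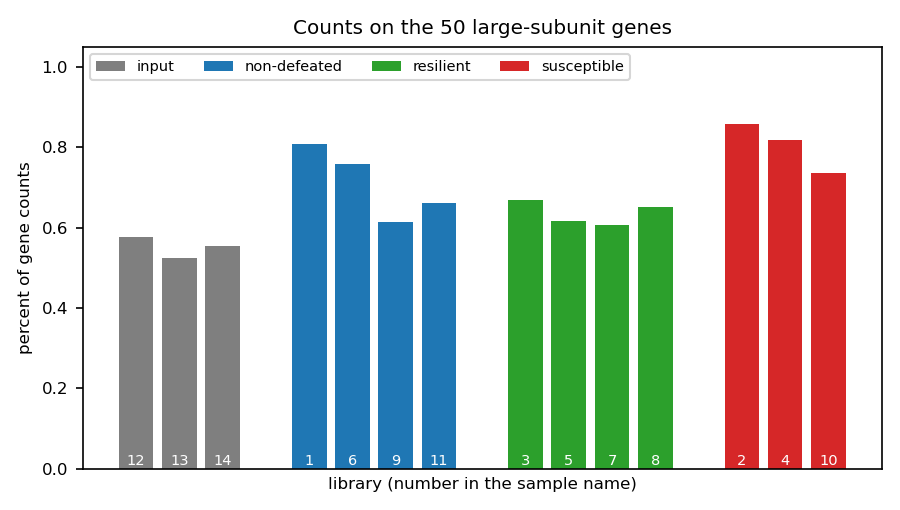
Percent of all gene counts that fell on the 50 large-subunit genes (vertical axis) in each of the 14 libraries (bars, colored by group, with the number of the sample name at the foot). Susceptible bars reach 0.737% to 0.858% and resilient bars 0.608% to 0.669%, while non-defeated numbers 1 and 6 stand near the susceptible and numbers 9 and 11 near the resilient libraries.

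Levels between genes were compared as RPKM, that is CPM divided by the length of the principal transcript in kilobases. Rpl41 encodes a very short peptide at the interface of the subunits. By this measure it was the highest in non-defeated TRAP, at 641 ± 111 RPKM (SD, n = 4). It was followed by Rpl38, at 578 ± 99.4, and by the stalk gene Rplp1, at 570 ± 70.4. Copies named after Rpl38 held 36.8% of the counts on that gene and those copies, and they are left out of its level. At the other end of the tested genes stood Rpl39l at 0.2 ± 0.1, Rpl3l at 0.8 ± 0.4 and Rpl22 at 15.6 ± 3.0 RPKM. The remaining tested genes lay between 43.8 ± 3.3 (Rpl18) and 425 ± 65.5 RPKM (Rpl36). The principal transcript of Rpl18 is 2989 bases long with 564 coding bases, and its level in non-defeated TRAP was 131 ± 9.9 CPM. The order depends on the length used. Over the length of all annotated exons, Rplp1 stood highest at 570 ± 70.4, before Rpl38 at 487 ± 83.8, Rpl36 at 425 ± 65.5 and Rpl41 at 319 ± 55.5.

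The first comparison asked which of these mRNAs were richer or poorer in RNA recovered with PV neuron ribosomes than in total hippocampal RNA. In the edgeR quasi-likelihood test, with p-values adjusted by Benjamini-Hochberg over all 21298 genes and called under 0.05, 36 of 49 members (73.5%) were higher in TRAP and 2 were lower. Over all genes 27.4% were called higher and 27.6% lower. The median log2 fold change of the members was 0.68, against −0.04 for all genes tested, and 43 of 49 had a positive sign. TRAP and input also differ in how RNA was recovered, and in these bulk samples more copies per PV neuron cannot be told apart from fewer copies in the other cells of the hippocampus.

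**Figure D2:**
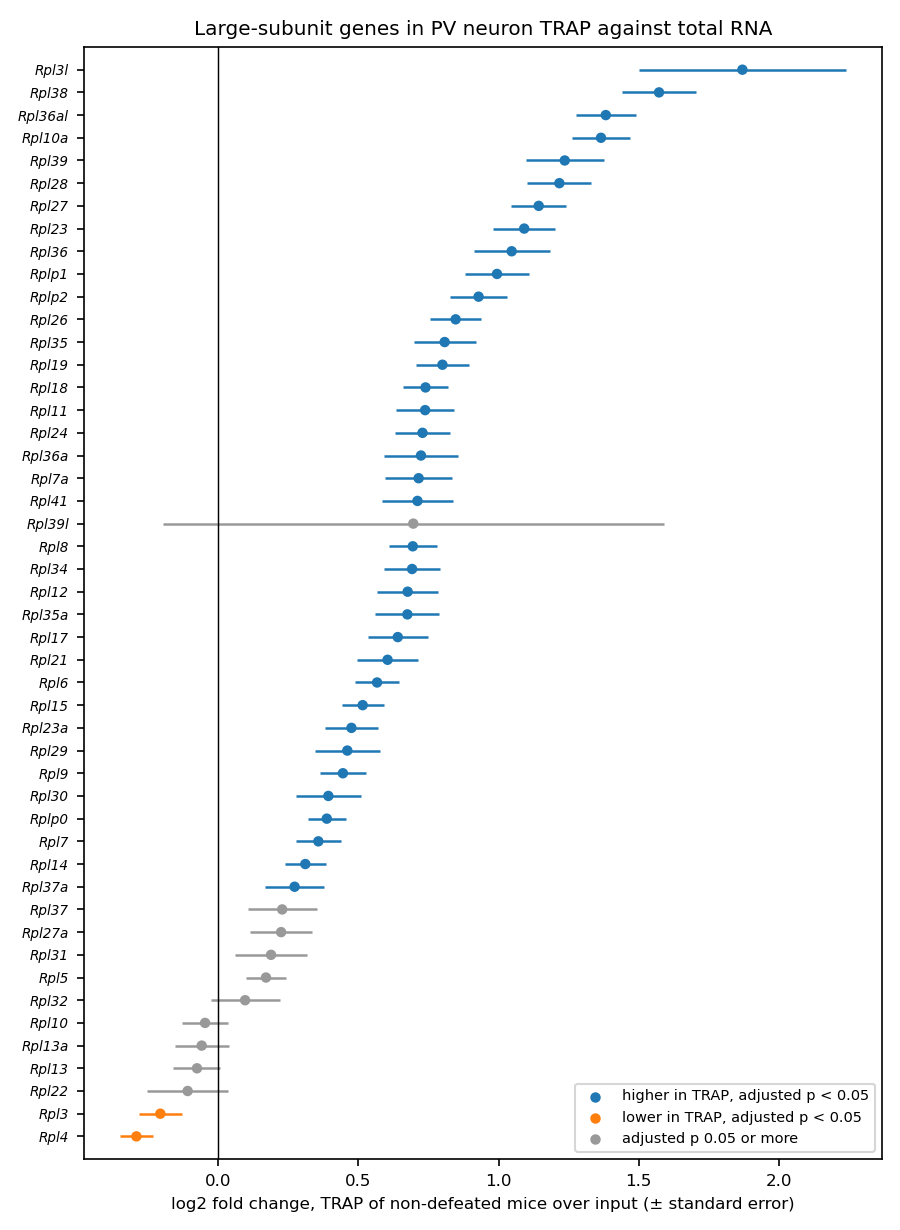
Log2 fold change of TRAP from non-defeated mice (n = 4) over input (n = 3), with standard error, for 48 of the 49 tested large-subunit genes, ordered by size. Most genes lie to the right of 0 (higher in TRAP), from Rpl3l at 1.87 down to Rpl4 at −0.29.

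Rpl10a, which encodes the protein that carries the tag and sits at the L1 stalk where spent tRNA leaves, measured 58.7, 54.5 and 57.6 CPM in input libraries 12, 13 and 14. In non-defeated TRAP libraries 1, 6, 9 and 11 it measured 153, 157, 145 and 131 CPM. Every TRAP value lay far above every input value. Its log2 fold change was 1.36 ± 0.10 (adjusted p = 1.04e-07). Whether reads of the EGFP-L10a transgene were counted under Rpl10a was not tested. Copies named after Rpl10a held 41.1% of the counts on that gene and those copies, and they are left out of its level. By size Rpl10a ranked 4 of 49, behind Rpl3l, which rests on low counts, Rpl38 and Rpl36al.

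Rpl38 encodes a small protein of the subunit's surface that mouse genetics has tied to the translation of homeobox mRNAs. It measured 95.7, 84.0 and 86.7 CPM in input and 314, 289, 218 and 235 CPM in non-defeated TRAP (log2 fold change 1.57 ± 0.13, adjusted p = 2.56e-07). Rpl27, a gene mutated in some families with Diamond-Blackfan anemia, rose by 1.14 ± 0.10 (adjusted p = 3.12e-07). Copies named after Rpl27, left out of its level, held 48.45% of the counts on that gene and those copies. Rpl28 rose by 1.22 ± 0.11 and Rpl23, whose product forms a bridge to the small subunit, by 1.09 ± 0.11. Rpl39, whose product lies in the exit tunnel, rose by 1.24 ± 0.14.

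The 2 genes that were lower in TRAP encode long proteins of the core. Rpl4, whose product lines the exit tunnel, measured 249, 247 and 250.0 CPM in input and 200.4, 205, 204 and 205 CPM in non-defeated TRAP. The groups did not overlap and each was tight (log2 fold change −0.29 ± 0.06, adjusted p = 0.000774). Rpl3, whose product reaches toward the peptidyl transferase center, measured 303, 256 and 268 CPM in input and 236, 238, 240.3 and 241 CPM in TRAP (−0.20 ± 0.08, adjusted p = 0.0326). The call of Rpl3 was lost in 5 of 14 fits that each left out 1 library, with an adjusted p of up to 0.195 (without input library 12), and in 3 of 10 other settings, with an adjusted p of up to 0.213. Rpl10, which encodes a protein added late in the maturation of the subunit, measured 118, 101 and 112 CPM in input and 114, 113, 95.2 and 106 in TRAP, so its groups overlapped (−0.05 ± 0.08). Rpl13 (−0.07 ± 0.08), Rpl13a (−0.06 ± 0.10) and Rpl22 (−0.11 ± 0.15) did not pass the test either.

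The stalk genes, whose products draw elongation factors to the ribosome, were all higher in TRAP. Rplp1 rose by 0.99 ± 0.11, Rplp2 by 0.93 ± 0.10 and Rplp0, the base on which the other stalk proteins sit, by 0.39 ± 0.07. Rplp0 measured 176, 155 and 162 CPM in input and 223, 212, 206 and 221 in TRAP, with no overlap. Of the partners of 5S rRNA, Rpl11 rose by 0.74 ± 0.10. Rpl5 stood at 0.17 ± 0.07 and did not pass the test (adjusted p = 0.0521), although its TRAP values, 141 to 151 CPM, lay above its input values, 124 to 131 CPM. It passed in 8 of 10 other settings but in only 2 of 14 fits that each left out 1 library. In those 14 fits its adjusted p reached up to 0.166. The difference between the fold changes of these genes was not tested. Both proteins are also known to bind the p53 regulator Mdm2 when they are free of the ribosome.

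Among paralogs, Rpl36al and Rpl36a encode nearly the same protein at the site from which tRNA leaves. Rpl36al measured 73.0, 66.2 and 70.0 CPM in input and 206, 197, 158 and 167 in TRAP (1.38 ± 0.11, adjusted p = 1.19e-07). Rpl36a measured 42.2, 38.3 and 39.1 CPM in input and 79.9, 73.6, 53.3 and 56.5 in TRAP (0.72 ± 0.13, adjusted p = 0.000343). Per length, from counts on the genes alone, Rpl36al stood at 346 ± 43.6 and Rpl36a at 136 ± 26.8 RPKM in TRAP, and at 133 ± 6.5 and 82.5 ± 4.3 RPKM in input. The difference between the fold changes of the pair was not tested. Counts of 3 pseudogenes named after Rpl36a amounted to 62.5% of all counts on that gene and these copies. They are left out of the level of Rpl36a. Rpl36al overlaps another gene by 332 bases on its own strand. The order of the pair is therefore uncertain.

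Rpl3l, a paralog of Rpl3 known from heart and skeletal muscle, was at 0.22, 0.35 and 0.28 CPM in input and at 1.92, 0.79, 0.71 and 0.74 in non-defeated TRAP. All TRAP values were higher than the input values, and non-defeated library 1 stood far above the other 3 (1.87 ± 0.37, adjusted p = 0.000617). Rpl39l, a paralog known from testis, ranged from 0.03 to 0.12 CPM in input and from 0.01 to 0.23 in TRAP, with overlap and a fold change of 0.70 ± 0.89. At these levels the paralogs added little to Rpl3, at 177 ± 1.6 RPKM, and to Rpl39, at 156 ± 29.6 RPKM in non-defeated TRAP.

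The size of the TRAP difference went with transcript length. Across the 47 members with substantial counts, Spearman's rho between log2 fold change and coding length was −0.42, a description over genes that share the same libraries. The 16 members with under 400 coding bases had a median of 0.72, the 25 between 400 and 800 a median of 0.64, and the 6 longer ones a median of 0.26. With an offset for the length of the principal transcript, added after seeing the data, the median over members was 0.31, with 30 called higher and 6 lower. Of the sequences, 17 genes with a pyrimidine tract had a median of 0.70 and 20 tested genes without one a median of 0.69.

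Other genes of the translation machinery were described from lists of their own. Of 33 small-subunit genes 26 were higher in TRAP, with a median of 0.45. Of 77 mitochondrial ribosomal protein genes 71 were higher, with a median of 0.79. Among 39 factors of large-subunit assembly, 16 were higher and 4 lower, with a median of 0.19. Rpl22l1, the paralog of Rpl22, which falls outside the symbol rule, rose by 0.94 ± 0.10.

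Between TRAP libraries the members moved together. For the 47 members with substantial counts, the median log2 deviation from the mean of the 11 TRAP libraries was 0.19 and 0.12 in non-defeated libraries 1 and 6 and −0.17 and −0.11 in libraries 9 and 11. Resilient libraries 3, 5, 7 and 8 stood at −0.11, −0.19, −0.19 and −0.12. Susceptible libraries 2, 4 and 10 stood at 0.28, 0.28 and 0.04. Thus the 4 resilient libraries were low and alike, susceptible libraries 2 and 4 were high and 10 was near the mean, below non-defeated libraries 1 and 6, and the non-defeated ones fell on both sides.

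**Figure D3:**
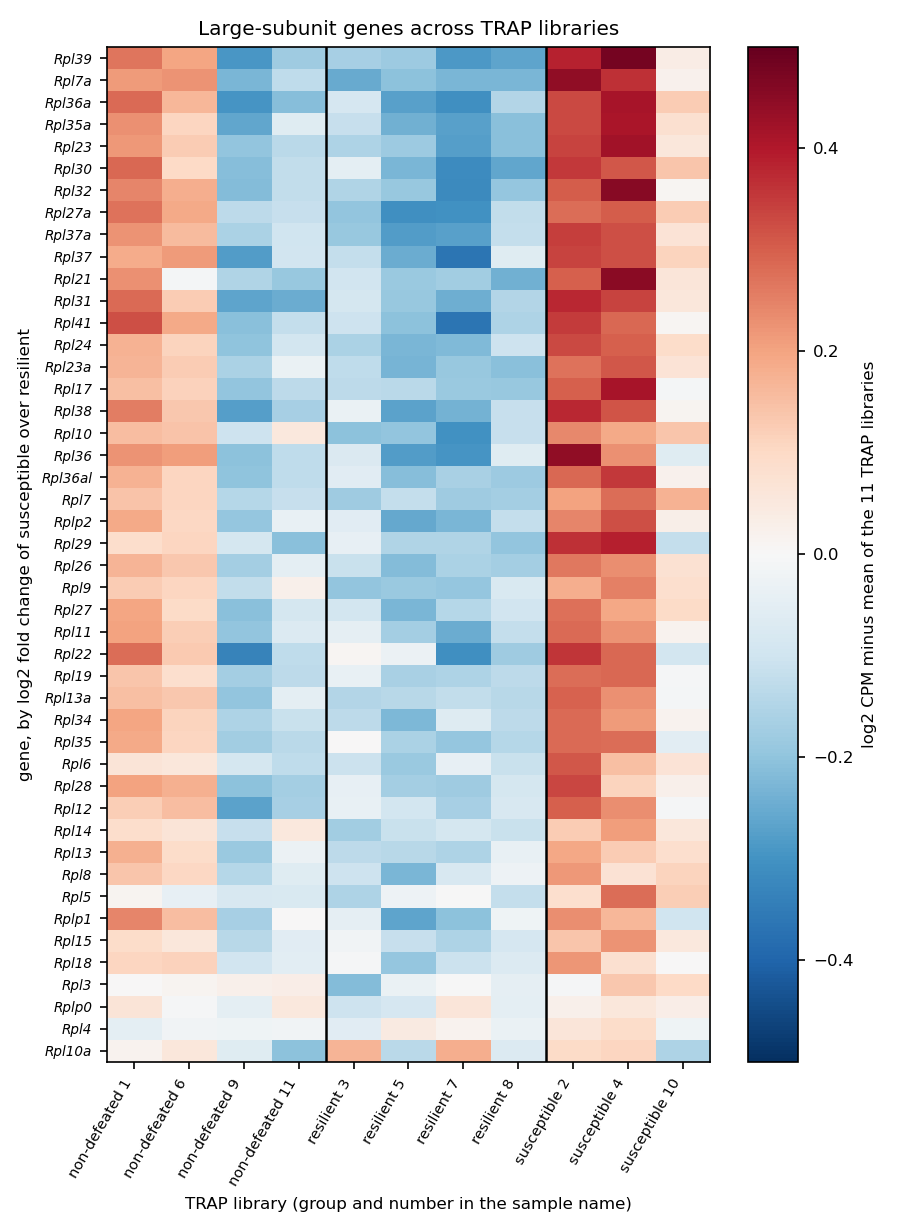
Deviation of log2 CPM from the mean of the 11 TRAP libraries (color, red above and blue below the mean) for 46 large-subunit genes (rows, ordered by the fold change between susceptible and resilient mice) in each library (columns). Non-defeated 1 and 6 and susceptible 2 and 4 are mostly red, susceptible 10 is paler, with 36 of 47 members above the mean, and non-defeated 9 and 11 and all resilient columns mostly blue, while the bottom rows (Rpl10a, Rpl4, Rplp0, Rpl3) vary little or follow another pattern.

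The number in the sample name, whose meaning the labels do not give, went with this split of the non-defeated libraries. Within non-defeated mice numbers 1 and 6 exceeded numbers 9 and 11 by a median of 0.29 (log2), in 45 of 47 members. Within resilient mice numbers 3 and 5 differed from 7 and 8 by a median of 0.02, and within susceptible mice numbers 2 and 4 exceeded number 10 by 0.24. Differences between stress groups are therefore also given within numbers 1 to 6 and within numbers 7 to 11. They rest on 1 or 2 libraries per group and on the same members that show the split. They are a description and no independent check.

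The next comparison asked how members differed between mice that kept social interaction after CSDS and mice that were never defeated. By the quasi-likelihood test 0 of 49 members were called between resilient and non-defeated mice, and 0 by DESeq2. At an unadjusted p under 0.05, 15 members (30.6%) were lower in resilient mice and 0 higher, where 2.16% of all genes were lower by that rule. DESeq2 gave 10 at that threshold, and its share over all genes is not given here. The median log2 fold change was −0.16, against 0.00 for all genes.

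Rpl10 had the smallest p of the members that were lower, at 88.6, 89.1, 82.8 and 94.2 CPM in resilient mice against 114, 113, 95.2 and 106 in non-defeated mice. All resilient values lay below all non-defeated ones (−0.27 ± 0.08, unadjusted p = 0.00335, adjusted p = 1.0). Rpl27a (−0.30 ± 0.10) and Rpl9 (−0.20 ± 0.08) were also among the smallest p-values, each with overlapping groups. Rpl10a (0.09 ± 0.09), Rpl4 (0.02 ± 0.05) and the low Rpl3l (0.10 ± 0.31) were the only members above 0. Within numbers 1 to 6 the median difference was −0.30, and within numbers 7 to 11 it was −0.02. Without non-defeated library 1 or 6, 3 members were lower at an unadjusted p under 0.05, and without library 9 there were 30. The shares over all genes in these fits are not given here.

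The same question was asked of susceptible mice, with the same non-defeated libraries as controls. By the quasi-likelihood test 0 of 49 members were called between susceptible and non-defeated mice, and 0 by DESeq2. At an unadjusted p under 0.05, 15 members (30.6%) were higher in susceptible mice and 0 lower, where 6.61% of all genes were higher. DESeq2 gave 2 at that threshold, and its share over all genes is not given here. The median was 0.18, against 0.01 for all genes, and 48 of 49 members had a positive sign, the exception being Rpl3l (−0.53 ± 0.34).

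Rpl5 had the smallest p, at 158, 182 and 163 CPM in susceptible libraries 2, 4 and 10 against 151, 145, 141 and 142 in non-defeated mice. The groups did not overlap (0.21 ± 0.07, unadjusted p = 0.00927, adjusted p = 0.245). Rpl21 followed at 0.30 ± 0.11, with overlap, and then Rpl7 at 0.22 ± 0.08 and Rpl6 at 0.20 ± 0.08, in which all susceptible values lay above all non-defeated ones. Rplp0 (0.02 ± 0.07), Rplp1 (0.04 ± 0.11), Rpl3 (0.06 ± 0.08), Rpl10a (0.07 ± 0.10) and Rpl4 (0.07 ± 0.06) had small estimates. Within numbers 1 to 6 the median difference was 0.12, and within numbers 7 to 11, with 1 susceptible library, 0.18. The count at an unadjusted p under 0.05 ranged from 1, without susceptible library 4, to 32, without susceptible library 10. The shares over all genes in these fits are not given here.

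The last comparison set the outcomes of CSDS against each other. By the quasi-likelihood test 12 of 49 members (24.5%) were higher in susceptible than in resilient mice and 0 were lower, also at an unadjusted p under 0.05 and by DESeq2. Of all genes 1.02% were called higher. These were Rpl7, Rpl7a, Rpl9, Rpl10, Rpl21, Rpl23, Rpl23a, Rpl24, Rpl27a, Rpl30, Rpl35a and Rpl37a. At an unadjusted p under 0.05, 43 members (87.8%) were higher, against 10.8% of all genes. In 39 members (79.6%) all 3 susceptible values lay above all 4 resilient ones, against 7.71% of all genes. The median was 0.36, against 0.00 for all genes, and 47 of 49 members had a positive sign.

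The adjusted p-values of the 12 ran from 0.0389 to 0.0493, close to the threshold, and the number of calls was not stable. In 14 fits that each left out 1 library, no member was called in 10, where the lowest adjusted p among members lay between 0.0533 and 0.136. In the other 4 the count was 8 without non-defeated library 11, 21 without library 1, 19 without library 9 and 32 without susceptible library 10. DESeq2 on the 2 groups called 24, whereas edgeR called 0 on the 2 groups only, on the TRAP libraries only, without the filter on low counts and with an offset for GC content. In all 14 fits between 36 and 43 members were higher at an unadjusted p under 0.05, and the median lay between 0.29 and 0.41. Shares over all genes are given here for the main fit only, so counts from the other fits cannot be set against such a share. Within numbers 1 to 6 the median difference was 0.41, with 47 of 47 members positive, and within numbers 7 to 11 it was 0.19, with 45 of 47 positive and 1 susceptible library. The members share these libraries and moved together, so they are not separate replicates.

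**Figure D4:**
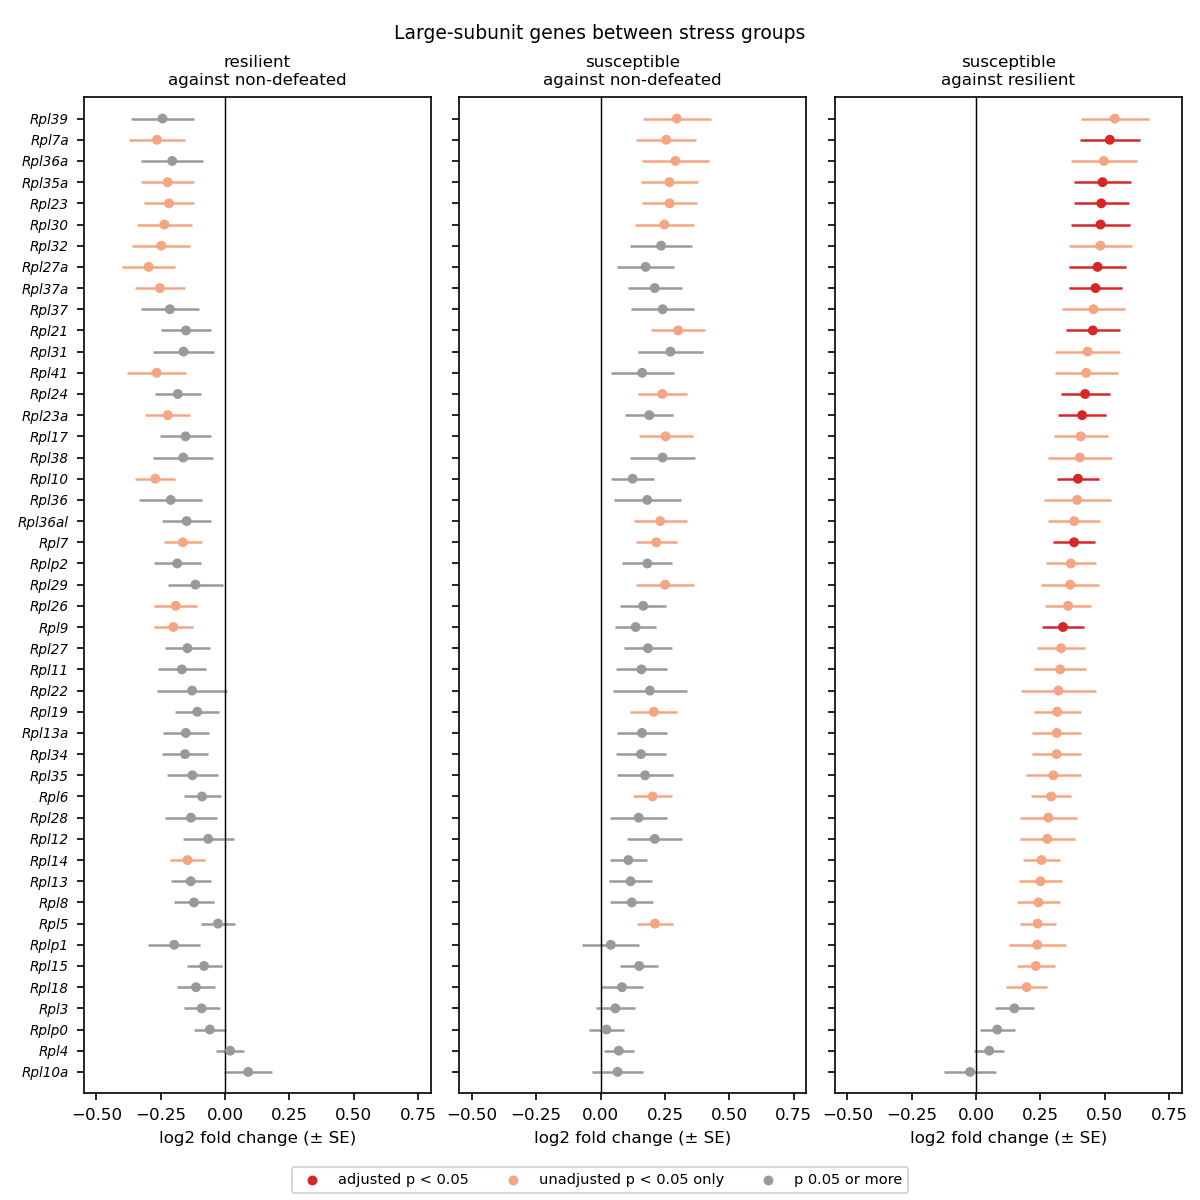
Log2 fold change with standard error for 46 large-subunit genes (rows) in the 3 comparisons between stress groups (panels), without the low Rpl3l and Rpl39l. Points lie mostly left of 0 for resilient and right of 0 for susceptible against non-defeated mice, and only the third panel has genes with an adjusted p under 0.05 (red, 12 genes).

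Rpl10 had the smallest p, with 121, 117 and 112 CPM in susceptible libraries 2, 4 and 10 against 82.8 to 94.2 in resilient mice. The gap between the groups was wider than the spread within either (0.40 ± 0.08, adjusted p = 0.0389). Rpl7 measured 152, 160 and 149 CPM in susceptible mice and 116, 121, 116 and 117 in resilient mice (0.38 ± 0.08, adjusted p = 0.0389). Rpl23 measured 252, 267 and 207 CPM in susceptible mice and 179, 175, 164 and 172 in resilient mice, with library 10 the lowest of the susceptible ones (0.49 ± 0.11, adjusted p = 0.0411). Rpl37a, which encodes a zinc finger protein of the subunit, measured 159, 157 and 131 CPM against 109.9, 103, 104 and 115 (0.46 ± 0.10, adjusted p = 0.0431). In each of the 4 genes the groups were apart.

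The largest estimate of the well measured members was that of Rpl39, a small protein in the exit tunnel, at 123, 132 and 97.0 CPM in susceptible mice against 84.1, 83.2, 77.4 and 78.7 in resilient mice. It did not pass the adjusted test (0.54 ± 0.13, adjusted p = 0.0537). The paralogs Rpl36a (0.50 ± 0.13, adjusted p = 0.0618) and Rpl36al (0.38 ± 0.10, adjusted p = 0.0656) had estimates of the same sign, each with groups apart. Of the stalk genes, Rplp2 was at 0.37 ± 0.10 and Rplp1 at 0.24 ± 0.11, and of the 5S partners Rpl11 was at 0.33 ± 0.10 and Rpl5 at 0.24 ± 0.07, all with adjusted p above 0.05. Rpl22 was at 0.32 ± 0.15, and its relative Rpl22l1 rose by 0.45 ± 0.09 (adjusted p = 0.0378).

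A few members showed small estimates beside the rest. Rpl10a, the tagged protein, measured 162, 163 and 136 CPM in susceptible libraries 2, 4 and 10 and 170.4, 138, 172 and 144 in resilient libraries 3, 5, 7 and 8, with full overlap (−0.02 ± 0.10). Rpl4 measured 216, 221 and 204 CPM against 199, 214, 209 and 202 (0.05 ± 0.06). Rplp0 measured 217, 222 and 218 CPM against 198, 201, 222 and 206 (0.08 ± 0.07), and Rpl3 measured 235, 259 and 253 against 203, 231, 235 and 229 (0.15 ± 0.08). In each of these genes the groups overlapped. Rpl3l went the other way, at 0.67, 0.88 and 0.61 CPM in susceptible mice, below all 4 resilient values of 1.02 to 1.16, and did not pass the test (−0.63 ± 0.34, adjusted p = 0.311). Rpl39l ranged from 0.01 to 0.41 CPM over the TRAP libraries (1.55 ± 0.86, adjusted p = 0.322).

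**Figure D5:**
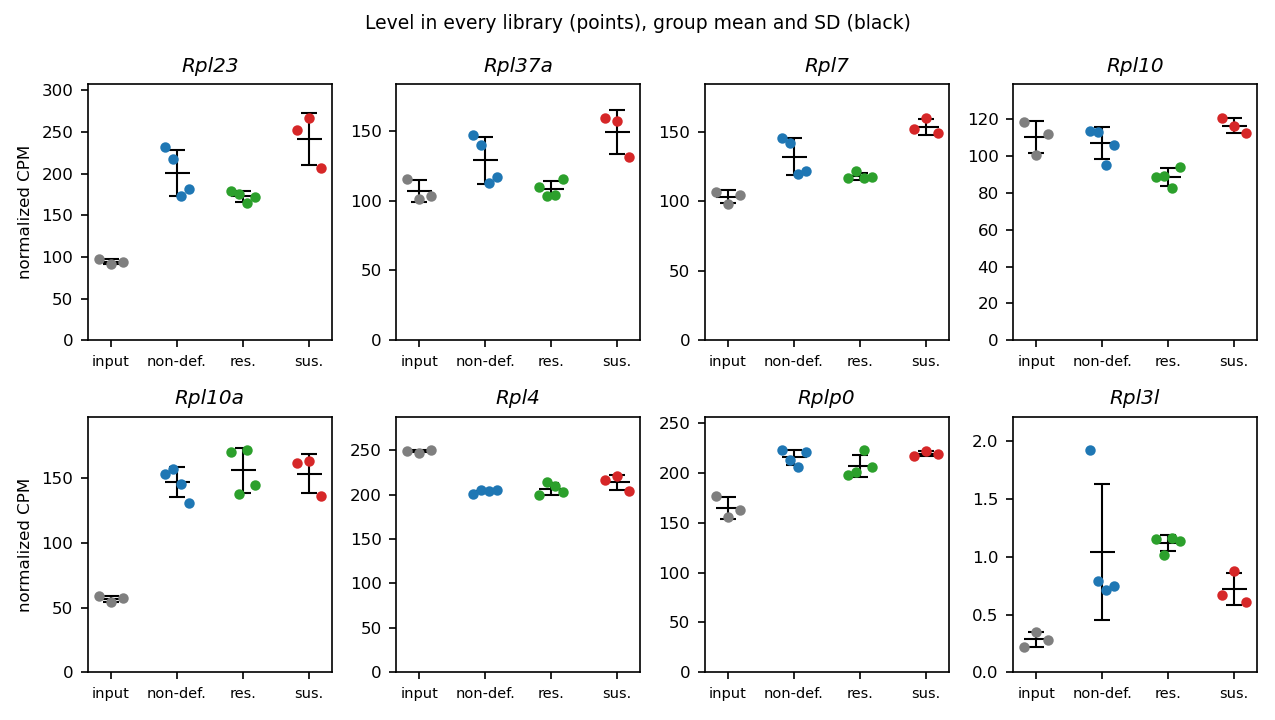
Normalized CPM (vertical axis, from 0) of 8 large-subunit genes in every library (points), with the group mean and SD (black), for input (n = 3), non-defeated (n = 4), resilient (n = 4) and susceptible mice (n = 3). Rpl23, Rpl37a, Rpl7 and Rpl10 show susceptible above resilient values, Rpl10a, Rpl4 and Rplp0 overlap between these groups, and Rpl3l shows the single high non-defeated library at 1.92 CPM.

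The estimates between susceptible and resilient mice went with coding length, too. The 16 members with under 400 coding bases had a median log2 fold change of 0.42, the 25 between 400 and 800 a median of 0.33, and the 6 longer ones a median of 0.19 (Spearman's rho −0.60 over 47 members, a description). Members with a pyrimidine tract at the start had a median of 0.31, and those without one a median of 0.35. With the offset for principal transcript length the median over members was 0.25, and 13 were called higher.

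Pseudogenes hold near copies of many members, and reads can fall on either. Copies were found by name, as the symbol of a member followed by -ps. The table held 141 such copies of 35 members, which took 27.6% of the counts on members and these copies together. Copies under other names were not searched, so these figures are lower bounds, also for members without a copy of this name. In Rpl35a, Rpl30, Rpl31, Rpl36a, Rpl10 and Rpl17 the copies held more counts than the gene, up to 69.8% in Rpl35a. Of the 12 genes called, Rpl35a, Rpl30 and Rpl10 are thus uncertain in level. With each member summed with its copies, 10 were called higher between susceptible and resilient mice and the median was 0.36. The library kit does not mark strand. Reads from bases where members overlap genes on the opposite strand, as in Rpl30, Rpl35, Rpl5 and Rpl23a, are of uncertain origin. Rpl24, which is among the 12 called, overlaps another gene by 484 bases on its own strand. Rpl36al does so by 332 bases, and Rpl13a overlaps other genes of its strand by 779. How such reads were counted was not tested.

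Of the fixed lists, all 33 small-subunit genes had positive estimates between susceptible and resilient mice, with 7 called higher and a median of 0.36. Mitochondrial ribosomal protein genes had 1 of 77 called higher and a median of 0.16. Among 39 assembly factors 2 were higher, namely Npm1 (0.38 ± 0.07, adjusted p = 0.0301), a nucleolar chaperone, and Nsa2 (0.47 ± 0.11, adjusted p = 0.0427), a factor of 60S maturation, and the median was 0.00. Of 19 TOP mRNAs that do not encode the ribosomal proteins listed here, 2 were higher and the median was 0.21. The median was 0.01 for 20 genes of mTOR signaling and TOP control, 0.04 for 10 elongation factor genes and −0.02 for 13 RNA polymerase I genes.

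Markers of other cells also varied between libraries. The 5 erythroid genes summed to 116 to 243 CPM in non-defeated, 129 to 599 in resilient and 889.8 to 1239 in susceptible TRAP libraries. In the input libraries they summed to 780 to 987 CPM, so the susceptible and input ranges overlapped. Of the 5, 4 were called higher in susceptible than in resilient mice. The 6 endothelial markers summed to 10.3 to 17.1 CPM in non-defeated, 17.8 to 48.5 in resilient and 28.3 to 41.8 in susceptible mice, so the resilient and susceptible ranges overlapped. The 4 choroid plexus and ependymal markers summed to 198 to 330, 191 to 449 and 432 to 710 CPM. The defining erythroid genes Hba-a1, Hbb-bs and Alas2 were detected in every group, and the part of these cells in the differences of the ribosomal protein genes was not tested. Non-defeated libraries 1 and 6, in which members were high, had erythroid sums of 151 and 164 CPM, and libraries 9 and 11, in which members were low, 116 and 243.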

How the data were processed

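The authors deposited raw read counts per gene for 14 libraries. Per the study's methods and the submitters' processing notes, cDNA was made with SMART-Seq v4 from 1 ng of RNA, sequenced as 150-base single reads, trimmed with fastp, aligned to mm10 with STAR (2.5.3a in the notes, another release in the methods) and counted with HTSeq. The kit does not mark strand. Library totals were 64110214 to 94726962. Gene symbols came from GENCODE M21, which named 37693 of 39017 identifiers, and start-site sequences from RefSeq.

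All counts were fitted in 1 edgeR 4.0.16 quasi-likelihood model over the 4 groups, with TMM scaling, filterByExpr and Benjamini-Hochberg adjustment over 21298 genes, in R 4.3.3. Tests were 2-sided and a call was an adjusted p under 0.05. Errors of log2 fold changes are standard errors. Each sample was 1 mouse. DESeq2 1.42.0, the tool of the study, and other settings served as alternatives. The steps were tested on simulated data. Erythroid and other marker lists, the gene lists and the members were chosen with earlier results of these data known. Genes named individually were, per comparison, the 4 with the smallest p in each direction, those called against the members' median, the tagged, stalk, core, 5S and paralog genes, and the highest and lowest per length. The 12 genes called between susceptible and resilient mice, Rpl28 and Rpl13a were named after their values were seen. Single results for 1 member and for 1 gene outside the rule are not reported here, and that member is not drawn in the plots of all members.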

Additional observations from a re-analysis of the deposited data

Results flagged for a closer look

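In groups of 4, a gene was set apart when its highest or lowest library stood far from the others by Dixon's test. Of 52 such tests on the named genes, 4 did so, and chance flags about 1 in 20 groups. Rpl3l was high in non-defeated library 1, at 1.924 CPM against 0.7136 to 0.7916 in the other 3. It was low in resilient library 5, at 1.016 CPM against 1.14 to 1.164. Both rest on low counts. Rpl4 was low in non-defeated library 1, at 200.4 CPM against 204.0 to 204.8, a small gap in a tight group. Rpl9 was high in resilient library 8, at 152.4 CPM against 140.3 to 141.3, and remained below every susceptible value.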

How the results depend on the processing

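The count of members called between susceptible and resilient mice, 12, was 24 with the likelihood ratio test and with DESeq2, 7 with RLE size factors, and 0 without a filter on low counts, with TRAP libraries only, with the 2 groups only and with an offset for GC content. It was 0 to 32 when 1 library was left out. Shares over all genes in these settings are not given here, so a general rise or fall in calls cannot be told apart from one among the members. The median of that comparison, 0.36, was 0.25 with the offset for principal transcript length (chosen after seeing the data) and 0.29 to 0.41 when 1 library was left out. The median between TRAP and input, 0.68, was 0.51 with the offset for gene length, 0.31 with that for principal transcript length and 0.58 to 0.74 without 1 library, with 36 to 40 calls. Without 1 library the medians were −0.23 to −0.10 for resilient and 0.12 to 0.26 for susceptible against non-defeated mice, with 0 calls in both.

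Some small estimates changed sign. With the GC offset these were Rpl10 in TRAP against input (0.047), Rpl5 in resilient against non-defeated (0.0048) and Rpl10a in susceptible against resilient (0.0281). With the gene length offset they were Rplp0 (−0.0513) and Rplp1 (−0.0128) in susceptible against non-defeated and Rpl4 in susceptible against resilient mice (−0.0031). With the principal transcript offset they were Rpl4 in resilient against non-defeated (−0.0037) and, in susceptible against non-defeated, Rplp0 (−0.0459), Rplp1 (−0.0338), Rpl10a (−0.0204) and Rpl3 (−0.0125). When 1 library was left out, the estimate of Rpl10 in TRAP against input ran from −0.11 to 0.0069, of Rpl3l in resilient against non-defeated from −0.0409 to 0.576, of Rplp1 in susceptible against non-defeated from −0.031 to 0.13 and of Rpl10a in susceptible against resilient mice from −0.0793 to 0.0568. The causes were not tested. No paired analysis was made, because the groups share no sample numbers and the labels do not say what these numbers mean. Whether input and non-defeated TRAP libraries came from the same mice could not be told from the labels.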
